A study of Mus musculus with 6 samples.

Results

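Chemokine receptors of myeloid and stromal cells were examined in B16F10 tumors, which are grafts of a mouse melanoma cell line, grown in the hind footpad or in the flank skin. The list held 6 of the 45777 genes counted, chosen by symbol: Ccr1, Ccr2, Ccrl2, Cx3cr1, Cxcr4 and Ackr3. The question was whether their RNA differed between tumors at a weight-bearing site and tumors at a site that bears no weight. There were 3 footpad tumors and 3 flank tumors, 1 total RNA library each, all from hosts labelled Foxn1-/- and 8 weeks old, and no group carried another allele or treatment. The study describes grafts of this line in C57BL/6J and in Foxn1-null mice, placed at both sites at once. Its methods speak of isolated tumor cells, whereas the labels speak of whole tumors and tie no tumor to a mouse. The main tests therefore treated these 6 tumors as independent, although some may share a mouse. Their p-values set the difference between sites against the spread between tumors of the same site.

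Chemokine receptors sit in the cell membrane and sense chemokines, small secreted proteins that attract cells. Conventional receptors couple to Gi proteins and direct migration, whereas atypical receptors bind ligands without Gi signaling and remove or present them. Ccr1 is carried by monocytes, macrophages and neutrophils, Ccr2 brings monocytes out of the bone marrow, and Cx3cr1 marks patrolling monocytes and many resident macrophages. Cxcr4 and Ackr3 share the ligand Cxcl12, which fibroblasts secrete; Cxcr4 signals through Gi, and Ackr3 is an atypical receptor found on endothelial and other stromal cells that takes Cxcl12 up. Ccrl2, also atypical, binds chemerin, the product of Rarres2, and is induced in activated myeloid and endothelial cells.

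Of the 6 genes, only Ackr3 passed the test, with a higher level in footpad tumors, while Ccr1, Ccr2 and Ccrl2 had larger fold changes with a far wider spread between tumors. Cxcr4 differed less, and Cx3cr1 was near the same mean level at both sites. Library totals ran from 46529649 to 66364366 reads, and levels are given as CPM (counts scaled to library size with edgeR's TMM factors). A count of 3 reads, taken as the limit of detection, equalled 0.0438 to 0.0673 CPM, and every one of the 6 genes had at least 6 reads in every tumor. The sites were compared by the quasi-likelihood test of edgeR on 17210 genes. Except where DESeq2 is named, a gene was called where its adjusted p was below 0.05 and its level differed at least 2-fold, which held for 2.89% of these genes as higher and 0.872% as lower in footpad tumors. By adjusted p alone, in either direction, 4.87% passed, and Ackr3 was again the only one of the 6. With footpad replicate 3 omitted edgeR called 0 genes in either direction (1459 higher and 420 lower at an unadjusted threshold of 0.05), so that every edgeR call named here was lost without that tumor.

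All 6 genes were matched to the GRCm38 annotation of RefSeq and lie on 2 chromosomes. On chromosome 9, Ccrl2 spans 111054834 to 111057518, Cx3cr1 120048683 to 120068296, Ccr1 123962126 to 123968692 and Ccr2 124101918 to 124109140. Ccr1 and Ccr2 are 133226 bases apart, with Ccr1l1 and Ccr3 between them. On chromosome 1, Ackr3 spans 90203980 to 90215724 and Cxcr4 128588199 to 128592299. The sequences around the transcript start, 250 bases before it and 50 after, are shown for the pair of Cxcl12 receptors, of which only Ackr3 was called, and for Ccr1 and Ccrl2, the genes with the largest fold changes. Capitals mark matches on either strand to GGGCGG and TATAAA in the Cxcl12 receptors, and to GAGGAA and GGACTTTCC in the others, motifs chosen after the sequences were read. They follow RefSeq, build GRCm38.p6, at chr1:90203730-90204029 (plus strand), chr1:128592250-128592549 (minus), chr9:123968643-123968942 (minus) and chr9:111057469-111057768 (minus, the first of 3 starts listed for Ccrl2).
Ackr3: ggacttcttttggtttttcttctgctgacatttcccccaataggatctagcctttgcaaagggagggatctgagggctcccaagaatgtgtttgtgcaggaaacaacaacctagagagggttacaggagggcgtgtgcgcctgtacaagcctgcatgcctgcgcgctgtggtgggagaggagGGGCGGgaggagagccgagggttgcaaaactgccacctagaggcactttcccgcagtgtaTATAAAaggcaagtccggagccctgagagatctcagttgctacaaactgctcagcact
Cxcr4: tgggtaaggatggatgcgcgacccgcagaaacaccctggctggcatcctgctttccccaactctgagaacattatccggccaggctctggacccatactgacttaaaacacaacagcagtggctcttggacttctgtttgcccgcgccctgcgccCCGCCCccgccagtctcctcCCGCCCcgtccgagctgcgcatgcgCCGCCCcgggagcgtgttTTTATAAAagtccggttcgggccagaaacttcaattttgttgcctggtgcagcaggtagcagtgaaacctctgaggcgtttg
Ccr1: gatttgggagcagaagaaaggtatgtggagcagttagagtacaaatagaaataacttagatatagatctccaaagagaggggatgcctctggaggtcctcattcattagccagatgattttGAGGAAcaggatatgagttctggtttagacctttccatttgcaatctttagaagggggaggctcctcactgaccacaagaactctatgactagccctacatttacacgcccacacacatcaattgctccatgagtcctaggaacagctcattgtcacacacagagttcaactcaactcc
Ccrl2: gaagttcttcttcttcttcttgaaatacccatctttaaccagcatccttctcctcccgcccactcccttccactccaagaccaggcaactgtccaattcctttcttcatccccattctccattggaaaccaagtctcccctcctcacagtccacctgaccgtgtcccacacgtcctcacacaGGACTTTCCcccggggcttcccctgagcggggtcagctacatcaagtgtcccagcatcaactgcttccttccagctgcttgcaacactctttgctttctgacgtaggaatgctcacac
GGGCGG, the core of an Sp1 site, occurs 3 times before Cxcr4 and 1 time before Ackr3, and is present in 35.7% of the 32851 promoters listed. TATAAA, the TATA box, occurs in both, with 2 overlapping matches on opposite strands in Cxcr4, and is in 13.6% of promoters. GAGGAA, a purine-rich core of ETS factors, occurs 1 time in Ccr1 and is in 28.3% of promoters, and GGACTTTCC, a form of the NF-kB site, occurs 1 time in Ccrl2 and is in 0.344%. The Ccrl2 sequence also holds 1 match to GGGCGG, which is not capitalized there. The 300 bases held 20 CpG dinucleotides in Cxcr4, 8 in Ackr3, 6 in Ccrl2, 5 in Cx3cr1 and 1 each in Ccr1 and Ccr2, against a median of 7 over all promoters. The matches describe these letters only.

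Ackr3, the atypical receptor that takes up Cxcl12, had 8.08, 6.65 and 6.82 CPM in the footpad (replicates 1, 2 and 3) and 3.10, 1.95 and 1.42 CPM in the flank. The footpad tumors were close to each other, with the highest at 1.22 times the lowest, and all lay above every flank tumor. The mean was 7.18 ± 0.782 CPM against 2.16 ± 0.860 CPM (SD, n = 3), a log2 fold change of 1.73, or 3.33-fold (standard error, SE, 0.33, edgeR adjusted p = 0.0352). In bulk tumors, a difference in the number of cells that carry a receptor and a difference in RNA per cell cannot be told apart. With single tumors left out, the log2 fold change stayed between 1.50 and 2.09. Ackr3 passed without flank replicate 1 and without footpad replicate 2 (adjusted p = 0.0309 and 0.0462 from edgeR), and missed the threshold without flank replicate 2 (0.0805), flank replicate 3 (0.105), footpad replicate 1 (0.123) or footpad replicate 3 (0.127). It also missed the threshold with the replicate number as a block (edgeR adjusted p = 0.0858).

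Cxcr4, the Gi-coupled receptor for Cxcl12, had 9.32, 3.03 and 3.86 CPM in the footpad (replicates 1, 2 and 3) and 4.29, 2.46 and 1.97 CPM in the flank. Footpad replicate 1 stood above the rest, and flank replicate 1 lay above footpad replicates 2 and 3, so the sites overlapped. The log2 fold change was 0.89 (SE 0.50, edgeR adjusted p = 0.306), and 0.24 without footpad replicate 1. Ackr3 was at 0.773, 1.94 and 1.55 times the level of Cxcr4 in footpad replicates 1, 2 and 3 on the FPKM scale, which accounts for transcript length, and at 0.636, 0.708 and 0.649 times in the flank replicates. This ratio, chosen after its values were seen, did not overlap between the sites (p = 0.1 by a two-sided exact permutation, as low as 3 tumors against 3 can reach).

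Ccr1, a receptor for Ccl3, Ccl5, Ccl6, Ccl7 and Ccl9, had 39.3, 7.09 and 24.4 CPM in the footpad (replicates 1, 2 and 3) and 0.759, 6.79 and 2.14 CPM in the flank. Every footpad tumor lay above every flank tumor, but the gap between the lowest footpad and the highest flank tumor was within counting error: 486 reads gave 7.09 CPM in footpad replicate 2 (95% exact Poisson interval 6.47 to 7.75), and 397 reads gave 6.79 CPM in flank replicate 2 (6.14 to 7.49). Such intervals cover counting error only. The log2 fold change of Ccr1, 2.87 or 7.29-fold, was the largest of the 6, with a standard error of 0.86 and an adjusted p of 0.0952 from edgeR. DESeq2 gave an adjusted p of 0.0359, and the alternatives ranged from 0.0359 to 0.270. Of the 6 genes, 2 did not overlap between the sites, Ccr1 and Ackr3, both with higher footpad levels, as did 17.5% of all genes tested, and 0 of the 6 had every footpad tumor lowest, against 14.9% of all genes.

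Ccr2, the receptor for Ccl2, Ccl7 and Ccl12, followed with 21.3, 7.12 and 17.7 CPM in the footpad (replicates 1, 2 and 3) and 0.397, 8.07 and 1.60 CPM in the flank. Flank replicate 2 lay above footpad replicate 2, and the flank tumors spread 20.4-fold, more widely than those of any other gene of the list. The log2 fold change was 2.20 (SE 0.95, edgeR adjusted p = 0.201), and it was 3.93 without flank replicate 2, where the adjusted p from edgeR was 0.0520.

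Ccrl2, the chemerin-binding receptor, had 12.1, 0.904 and 4.43 CPM in the footpad (replicates 1, 2 and 3) and 0.466, 2.09 and 0.623 CPM in the flank. Its footpad tumors spread 13.4-fold, and flank replicate 2 again lay above footpad replicate 2. The log2 fold change of 2.45 (SE 0.95, edgeR adjusted p = 0.161 and 0.0215 with DESeq2, spanning 0.0215 to 0.478 across alternatives) dropped to 1.33 when footpad replicate 1 was omitted and became 3.40 when flank replicate 2 was. DESeq2 called 3 of the 6 genes, Ackr3, Ccr1 and Ccrl2, all higher in footpad tumors, where it called 6.71% of all genes tested as higher and 2.05% as lower.

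Cx3cr1, the receptor for the membrane-bound chemokine Cx3cl1, was the least abundant, with 0.404, 0.335 and 0.490 CPM in the footpad (replicates 1, 2 and 3) and 0.103, 0.838 and 0.272 CPM in the flank. These values rest on 6 to 49 reads, and the highest and the lowest tumor were both from the flank. The log2 fold change was 0.02 (SE 0.74, edgeR adjusted p = 0.991), and without single tumors it lay between -0.44 and 1.11, so that the data fix no direction.

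**Figure D1:**
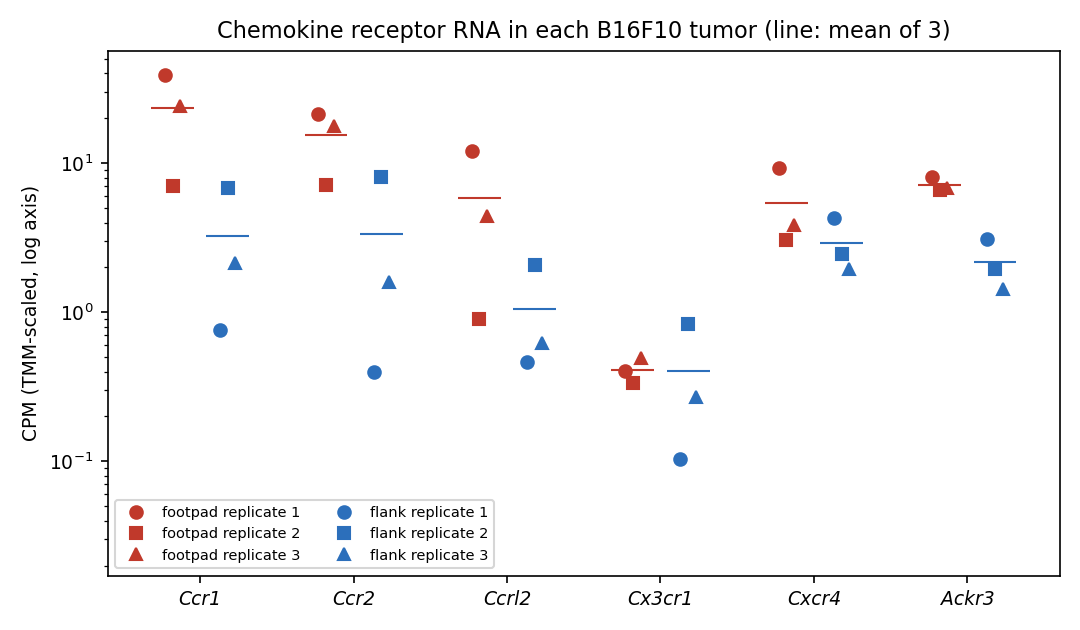
CPM of the 6 receptors on a log axis, with 1 point per tumor, red for footpad and blue for flank, the marker shape for the replicate and a line for the mean of 3 tumors. The footpad points of Ackr3 lie close together above all flank points, while those of Ccr1, Ccr2 and Ccrl2 spread widely, with footpad replicate 2 (red square) near flank replicate 2 (blue square).

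Levels were compared between genes by FPKM, the authors' value scaled by transcript length and depth. In footpad tumors the means ran from Ccr1 (7.19 ± 4.55 FPKM, SD, n = 3) through Ccr2 (3.66 ± 1.60), Ackr3 (3.09 ± 0.140), Ccrl2 (2.58 ± 2.46) and Cxcr4 (2.57 ± 1.43) to Cx3cr1 (0.0949 ± 0.0177). In flank tumors Cxcr4 led (1.40 ± 0.494 FPKM), followed by Ccr1 (1.07 ± 1.11), Ackr3 (0.925 ± 0.304), Ccr2 (0.866 ± 1.10), Ccrl2 (0.497 ± 0.471) and Cx3cr1 (0.0986 ± 0.102). Neighbors in these orders overlapped in their ranges except Cxcr4 and Cx3cr1 in footpad tumors. The highest of the 6 was Ccr1 in flank replicate 2 and in footpad replicates 1 and 3, Cxcr4 in flank replicates 1 and 3, and Ackr3 in footpad replicate 2. Ccr1, Ccr2, Ccrl2 and Cx3cr1 together held 74.3%, 50.2% and 74.6% of the summed FPKM of the 6 genes in the footpad tumors, in replicate order, and 14.0%, 71.8% and 46.7% in those of the flank.

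**Figure D2:**
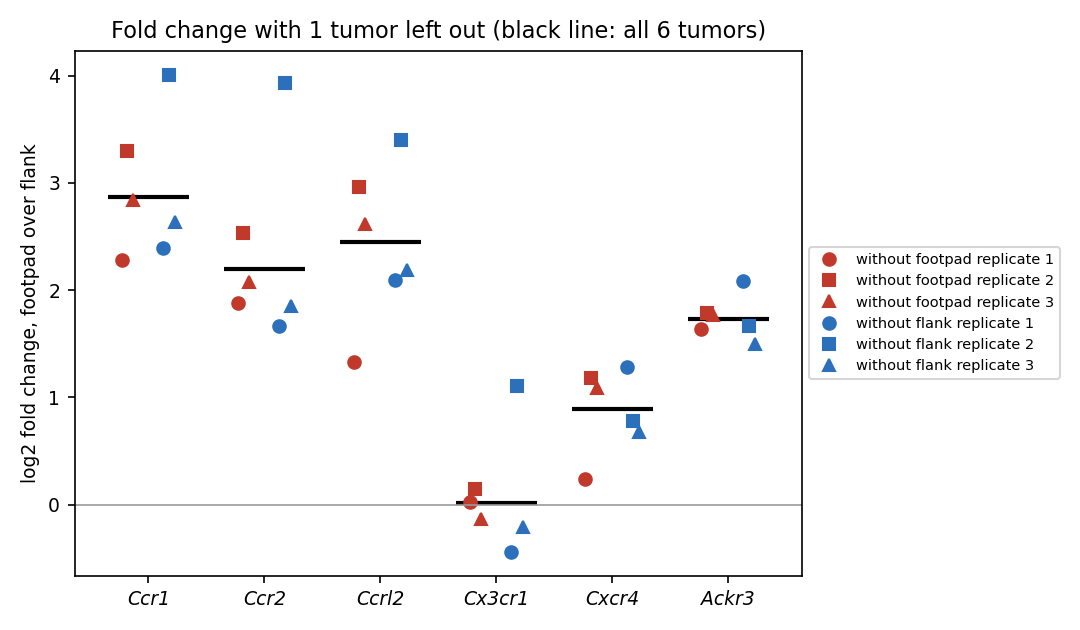
Log2 fold change of each receptor, footpad over flank, from edgeR, with all 6 tumors (black line) and with 1 tumor left out (points, colored by the site and shaped by the replicate of the tumor left out). The points of Ackr3 stay between 1.50 and 2.09, while those of Ccr2 reach from 1.67 to 3.93 and those of Cx3cr1 lie on both sides of 0.

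The ligands were examined next. Of 14 genes for proteins that bind these receptors, edgeR called 2 higher in footpad tumors, both of them ligands of Ccr2, and 0 lower, and DESeq2 called 5 higher and 1, Cxcl11, lower. Their median log2 fold change was 1.52, against -0.0042 over all genes tested. Ccl2, which attracts monocytes through Ccr2, was at 34.1, 18.6 and 31.9 CPM in the footpad and at 2.16, 4.81 and 2.92 CPM in the flank (log2 fold change 3.10 with SE 0.37, edgeR adjusted p = 0.0139). Ccl7, a ligand of Ccr2 and Ccr1, had a log2 fold change of 2.71 (edgeR adjusted p = 0.0148). Neither overlapped between the sites, unlike Ccr2 itself. Without footpad replicate 1, footpad replicate 3 or flank replicate 3, 0 of the ligands and other receptors were called, and without flank replicate 2 there were 6.

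Among ligands of Ccr1 that edgeR did not call, Ccl6 was at 46.1, 17.9 and 31.4 CPM against 4.09, 13.5 and 2.70 CPM, without overlap (log2 fold change 2.23, edgeR adjusted p = 0.0805). Ccl9, at 1.46, overlapped (edgeR adjusted p = 0.178). DESeq2 called both higher in footpad tumors, with adjusted p of 7.7e-04 for Ccl6 and 0.0463 for Ccl9. Ccl3 and Ccl4 had log2 fold changes of 2.71 and 1.62 with standard errors of 1.43 and 0.79, and Ccl5 one of -0.21 (adjusted p = 0.276, 0.244 and 0.809 from edgeR). Ccl8 was at -0.55 and Ccl12, a Ccr2 ligand, at 0.97. Cxcl12 was at 16.7, 9.33 and 23.6 CPM in the footpad and at 1.50, 5.94 and 2.36 CPM in the flank. The sites did not overlap, and its log2 fold change of 2.34 (SE 0.56, edgeR adjusted p = 0.0570, spanning 1.2e-04 to 0.176 across alternatives) missed the threshold. Cxcl11, another ligand of Ackr3, was at 0.359, 0.204 and 0.572 CPM in the footpad and at 1.72, 1.90 and 0.799 CPM in the flank, lower in every footpad tumor (log2 fold change -1.97, edgeR adjusted p = 0.0765 and 0.0177 with DESeq2, spanning 0.0177 to 0.215 across alternatives). Mif, a cytokine that also binds Cxcr4, had -0.56 (adjusted p = 0.142), Cx3cl1 1.58 (0.183) and Rarres2 -0.59 (0.690, all from edgeR). Of 3 proteases that act on these ligands, Dpp4, Adam10 and Adam17, none was called, with log2 fold changes of -0.83, 0.09 and -0.39 and adjusted p values from 0.158 to 0.766 from edgeR.

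**Figure D3:**
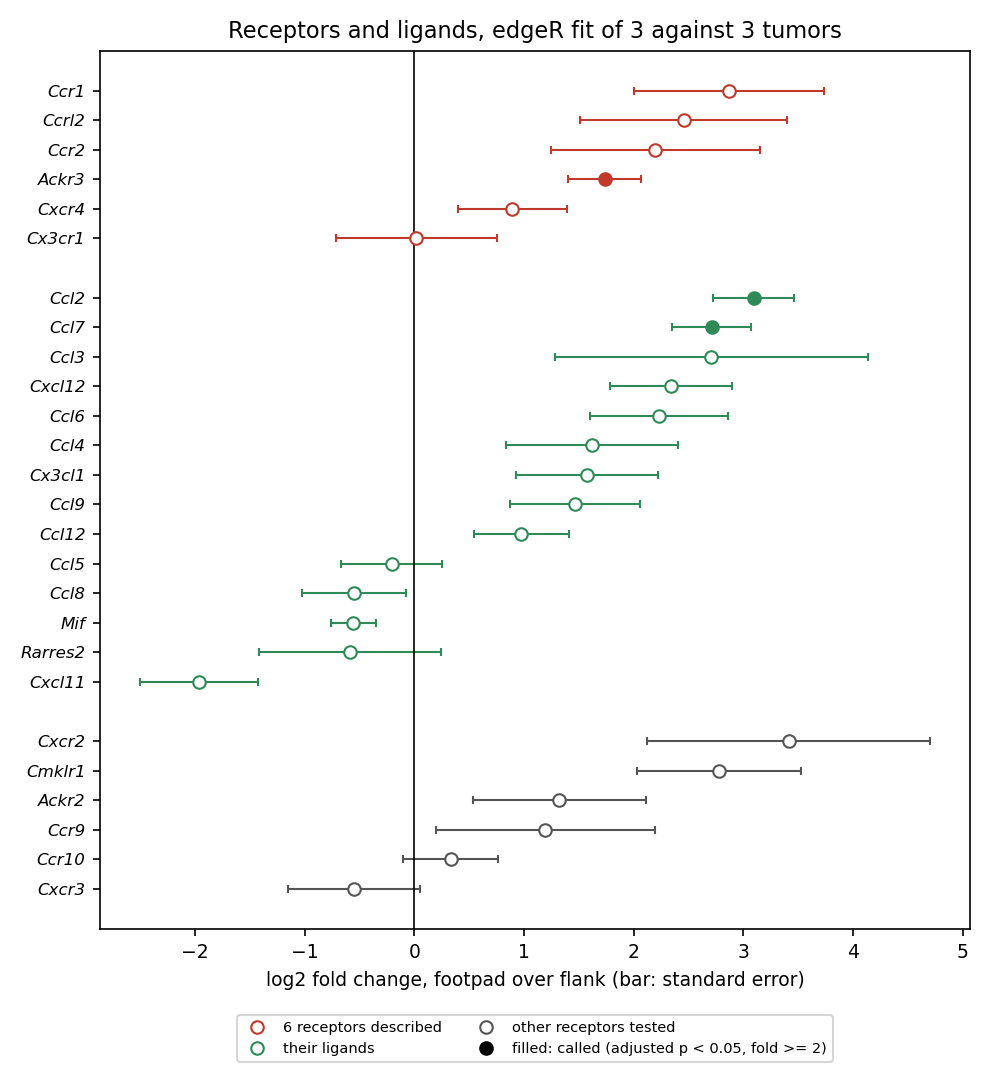
Log2 fold change, footpad over flank, with its standard error, for the 6 receptors (red), their 14 ligands (green) and 6 other receptors tested (gray). Filled points mark the called genes Ackr3, Ccl2 and Ccl7, and 9 of the 14 ligands lie above 0, against 8551 of all 17210 genes tested.

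Of 20 other receptors for chemokines or chemerin, 7 passed the filter on low counts, and 0 were called in either direction by edgeR. DESeq2 called 2 of them, both higher in footpad tumors, among them Cmklr1. Cmklr1, the signaling receptor for chemerin, was at 5.52, 3.85 and 5.14 CPM in the footpad and at 0.155, 1.54 and 0.415 CPM in the flank, without overlap (log2 fold change 2.78 with SE 0.75, edgeR adjusted p = 0.0726 and 9.4e-04 with DESeq2, spanning 9.4e-04 to 0.209 across alternatives). Cxcr2, the receptor of neutrophils, was at 15.8, 0.379 and 7.17 CPM in the footpad and at 0.845, 1.27 and 0.0799 CPM in the flank, with footpad replicate 2 inside the range of the flank tumors. Of the 20, 12 had at most 10 reads in every tumor, among them Ccr1l1 and Ccr3, the genes between Ccr1 and Ccr2. Ccr8, which lies 23837 bases from Cx3cr1, had 0 reads in all 6 tumors. A count of 0 allows up to 3 reads, the limit given above.

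Downstream of these receptors, edgeR called 1 of 22 signaling genes, higher in footpad tumors, where it called 2.89% of all genes tested as higher. DESeq2 called 7 of the 22, all higher in footpad tumors, where it called 6.71% of all genes tested as higher. Pik3r5, a regulatory subunit of the phosphoinositide kinase that Gi-coupled receptors activate, was at 7.03, 3.63 and 5.66 CPM in the footpad and at 0.535, 1.04 and 0.975 CPM in the flank (log2 fold change 2.67 with SE 0.40, edgeR adjusted p = 0.0201). It missed the threshold without flank replicate 3, footpad replicate 1 or footpad replicate 3 (edgeR adjusted p = 0.0792, 0.0812 and 0.0975). Of the 22, 18 had positive log2 fold changes, with a median of 0.69, against 8551 of the 17210 genes tested, with a median of -0.0042. Elmo1, which acts with Dock2 on Rac, had 1.98 (adjusted p = 0.0516 from edgeR and 5.3e-04 with DESeq2). Arrb1, an arrestin that atypical and conventional receptors recruit, had 0.96 (adjusted p = 0.0713 from edgeR and 0.00634 with DESeq2), under the fold required for a call. The Gi subunits Gnai2 and Gnai3 were at 0.37 and 0.17, neither called.

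Marker genes of the cells that could carry these receptors were compared beside them. The leukocyte gene Ptprc was at 36.6, 7.15 and 24.0 CPM in the footpad and at 1.97, 9.87 and 3.82 CPM in the flank, with footpad replicate 2 below flank replicate 2, the same order that Ccr2 and Ccrl2 showed (log2 fold change 2.11, edgeR adjusted p = 0.124). The 9 neutrophil markers summed to 360, 6.81 and 175 CPM in footpad replicates 1, 2 and 3 and to between 4.68 and 29.8 CPM in the flank, and footpad replicate 1 was highest for 7 of the 7 tested. The 5 monocyte markers summed to 37.1, 5.99 and 24.6 CPM and to between 1.90 and 7.60 CPM. The 8 macrophage markers varied less in the footpad, between 102 and 129 CPM, but lay between 24.7 and 103 CPM in the flank. Of these 8, edgeR called 1, Cd68, higher in footpad tumors. With single tumors left out, Cd68 passed only without footpad replicate 2 (edgeR adjusted p from 0.0335 to 0.148). Counts called by edgeR in these lists, all higher in footpad tumors, were 0 for neutrophils, monocytes and dendritic cells, 7 of 8 for fibroblasts and 3 of 7 for endothelium (2, 2, 0, 8 and 5 by DESeq2), and their part in the receptor levels was not tested. Fibroblast markers summed to between 2752 and 3756 CPM in the footpad and between 94.9 and 429 CPM in the flank, and endothelial markers to between 293 and 310 and between 154 and 196 CPM.

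The melanoma markers were present in every tumor, with Pmel between 2400 and 5046 CPM, and 0 of 7 were called. T cell markers had at most 8 reads per gene and tumor, with Cd3d and Cd3g at 0 in all 6. Lists for NK cells, B cells and mast cells had at most 26, 25 and 14 reads per gene and tumor and no called gene. Of the 7 dendritic cell genes, Zbtb46 was at 8.90 to 11.6 CPM in every tumor, Itgax reached 2.27 CPM, and Xcr1 and Clec9a had at most 5 reads. By edgeR no keratinocyte or muscle marker was called, and DESeq2 called 1 keratinocyte marker, Krt1, higher in footpad tumors (adjusted p = 0.0264, spanning 0.0264 to 0.184 across alternatives). Keratinocyte markers summed to 428 CPM and muscle markers to 448 CPM in footpad replicate 2, against at most 21.4 and 55.0 CPM in the other tumors. Without that tumor the log2 fold changes of Ccr1, Ccr2, Ccrl2 and Ackr3 were 3.30, 2.54, 2.96 and 1.78.

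**Figure D4:**
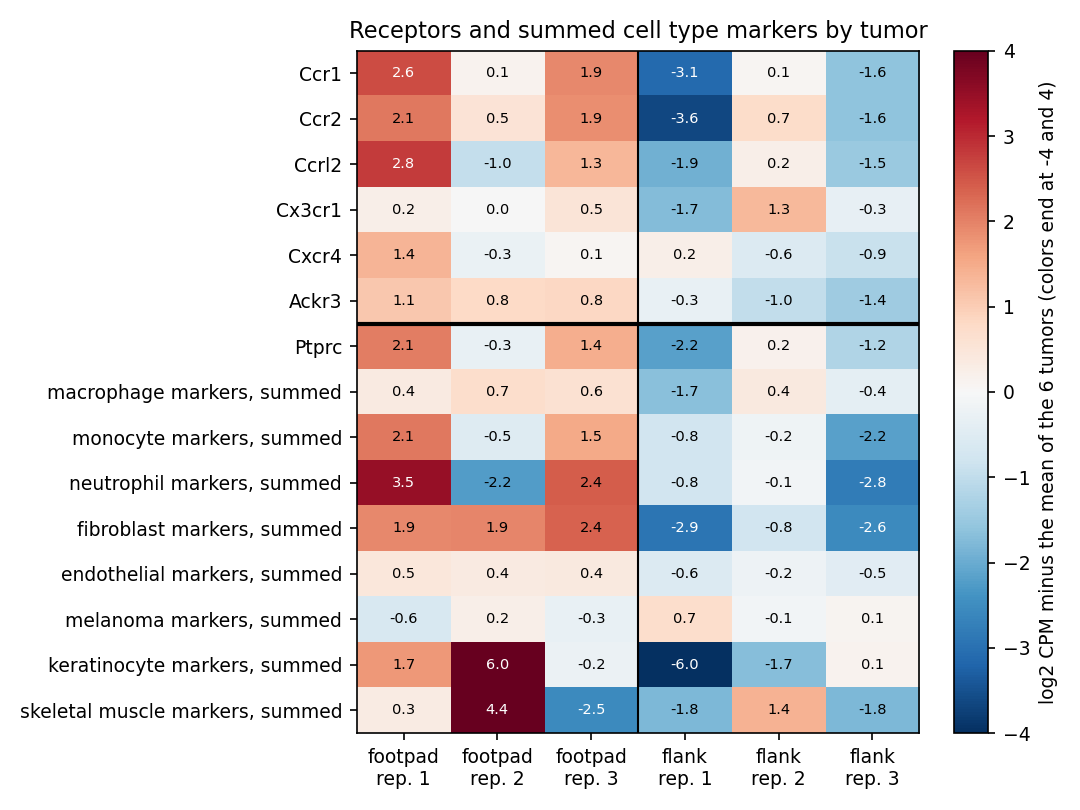
Log2 CPM of the receptors, of Ptprc and of summed marker lists in each tumor, minus the mean over the 6 tumors, with red above and blue below that mean. Ccr1, Ccr2 and Ccrl2 are high with Ptprc and the neutrophil and monocyte markers in footpad replicates 1 and 3. Ackr3, Ccr1, Ccr2 and the fibroblast, endothelial and macrophage sums are above their means in all 3 footpad tumors. Of these, Ackr3 and the fibroblast and endothelial sums are also below their means in all 3 flank tumors, whereas the others are above theirs in flank replicate 2.

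Expressed relative to marker genes, the receptors fell into different patterns. A set of 14 such ratios was tested on the log2 scale with two-sided exact permutation tests, whose smallest p is 0.1 for 3 tumors against 3, or 0.233 after Benjamini-Hochberg adjustment over the 14, so none could pass. Ccr1 was at 1.07, 0.992 and 1.02 times Ptprc in footpad replicates 1, 2 and 3, and at 0.386, 0.688 and 0.561 times in flank replicates 1, 2 and 3. The footpad tumors thus had nearly the same ratio although Ccr1 itself spread 5.55-fold among them, and the sites did not overlap (exact p = 0.1). Ccr2 relative to Ptprc overlapped (0.583, 0.996 and 0.737 against 0.202, 0.818 and 0.418, exact p = 0.3), as did Ccrl2, with a log2 difference of -0.027 (exact p = 1). Cx3cr1 was lower relative to Ptprc in every footpad tumor, at 0.0110, 0.0469 and 0.0204 against 0.0526, 0.0849 and 0.0711 (exact p = 0.1). The lowest flank ratio, in replicate 1, rested on 6 reads of Cx3cr1 (0.103 CPM, 95% exact Poisson interval 0.0380 to 0.225). Its gap to footpad replicate 2, with 23 reads, was within that counting error. Cxcr4 overlapped, with flank replicate 1 at 2.18 times Ptprc.

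**Figure D5:**
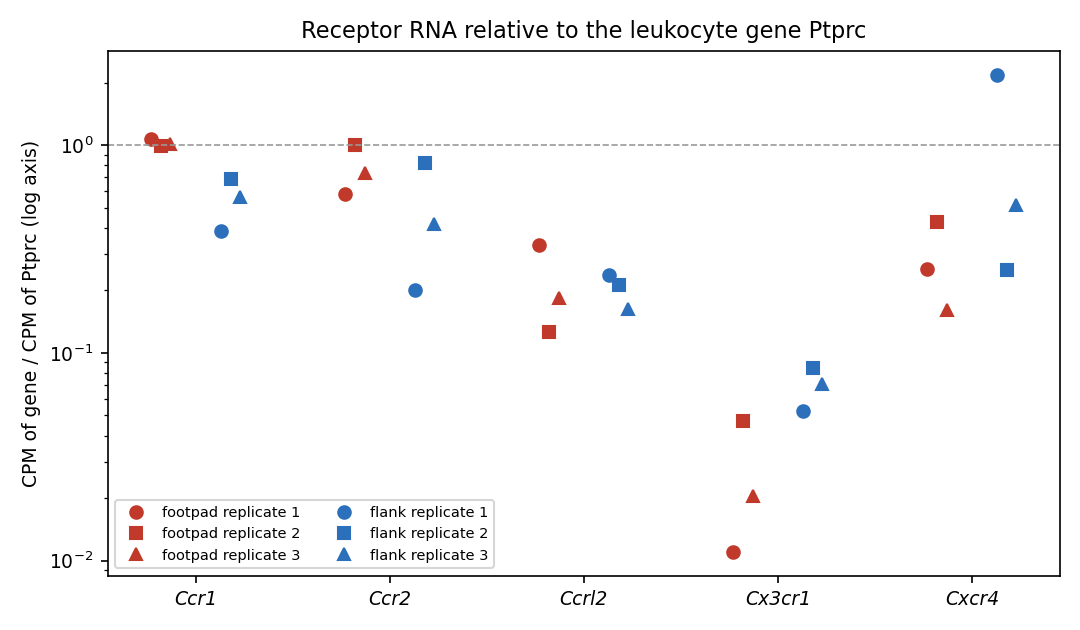
CPM of each receptor divided by CPM of Ptprc in the same tumor, on a log axis, with 1 point per tumor and a dashed line at 1. The 3 footpad tumors sit at the line for Ccr1, above all flank tumors. For Cx3cr1 the footpad tumors lie below all flank tumors, with the smallest gap within counting error.

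Relative to the summed macrophage markers, Ccr1, Ccr2, Ccrl2 and Cxcr4 overlapped between the sites (exact p from 0.2 to 0.6), and Cx3cr1 lay lower in every footpad tumor, at 0.395%, 0.260% and 0.406% of the sum against 0.419%, 0.816% and 0.449% (exact p = 0.1), but overlapped on the FPKM scale (exact p = 0.5). Ackr3 was at 2.60%, 2.27% and 2.30% of the summed endothelial markers in footpad replicates 1, 2 and 3, and at 2.02%, 0.996% and 0.862% in the flank replicates, higher in every footpad tumor (exact p = 0.1). With FPKM in place of CPM, or with the mean of log2 levels over the list, the sites overlapped (exact p = 0.2 and 0.4). Relative to the fibroblast markers the direction was the opposite, with Ackr3 at 0.182% to 0.294% of the sum in the footpad and 0.454% to 3.27% in the flank (exact p = 0.1). Cxcr4 was also lower relative to fibroblast markers in every footpad tumor (exact p = 0.1) and had a log2 difference of -0.015 relative to endothelial markers (exact p = 1).

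The genes with the pattern most like each receptor were named by Pearson's r of log2 CPM over the 6 tumors among 14079 named genes. With so few tumors, which share a site difference, high values are common, and between 17 genes for Cx3cr1 and 360 for Ccr1 reached an r of 0.95. Nearest to Ccr1 were Tnfrsf1b (r = 0.999), a receptor for tumor necrosis factor, Pirb, an inhibitory receptor of myeloid cells (0.999), and Dctn1 (0.997). Macf1, Nfam1 and Clec4n were nearest to Ccr2 (0.998, 0.997 and 0.996), and Arg2, Kmt2a and Pilra to Ccrl2 (0.997, 0.997 and 0.996). For Ackr3 they were Arid3c (0.998), Slc41a2 (0.997) and Baalc (0.995), each of them called higher in footpad tumors, with log2 fold changes of 2.64, 1.71 and 2.54. They were picked for a pattern like that of Ackr3, itself called, so these calls are no separate result. Arid3c and Baalc were low, at 0.0959 and 0.0639 CPM in flank replicate 3. Baalc missed the threshold whichever tumor was left out (edgeR adjusted p from 0.0600 to 0.155). Dlgap4, Lncpint and Lmbr1l were nearest to Cxcr4 (0.996, 0.991 and 0.987), and Zfp239, Artn and Phlpp2 to Cx3cr1 (0.989, 0.987 and 0.975). Among the receptors, r was 0.98 for Ccr1 and Ccr2, 0.93 for Ccr1 and Ccrl2, and 0.87 for Ccr2 and Ccrl2, whereas Cxcr4 and Ackr3 had 0.74 and Cx3cr1 and Ackr3 0.070.

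Genes next to the receptors on the chromosome were compared by the same fit. The 2 nearest protein-coding genes on each side of Ackr3 included Col6a3, a collagen gene 551136 bases away, which was called higher in footpad tumors (log2 fold change 3.24, edgeR adjusted p = 0.0141), while Cops8, 387236 bases away, had 0.26 and Iqca and Asb18 had 0 reads. Near Cxcr4, Dars, an aminoacyl-tRNA synthetase gene 170783 bases away, had a log2 fold change of -0.73 and an adjusted p of 0.0425 from edgeR, under the fold required for a call. Csrnp1, 63941 bases from Cx3cr1, was called higher (1.37, adjusted p = 0.0340 from edgeR). With single tumors left out, Csrnp1 passed only without footpad replicate 2 (edgeR adjusted p from 0.0194 to 0.128). Around Ccrl2, Ltf, a neutrophil granule gene 12068 bases away, had 2.16 (adjusted p = 0.429 from edgeR), and Lrrfip2 had 0.07.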

How the data were processed

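Total RNA libraries of 3 footpad and 3 flank B16F10 tumors were analysed, 1 per tumor. Per the labels and the study's methods, the authors trimmed reads with Trimmomatic and aligned them to mm10 with HISAT2 2.1.0, and the deposited values are whole read counts per RefSeq gene, without normalization, and FPKM values scaled by the authors for length and depth. The authors also filtered the counts, by a criterion not stated. The program that counted the reads and its handling of reads shared between genes are not given in the sources used here. Identifiers of 45679 of 45777 genes matched RefSeq GRCm38.p6.

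Counts were fitted in R 4.3.3 with edgeR 4.0.16 (TMM, filterByExpr, glmQLFit, glmQLFTest, Benjamini-Hochberg). Standard errors were taken as the absolute log2 fold change over the square root of F. The common biological coefficient of variation was 0.338, and replicates differed by more than counting noise (chi-square per gene of 58.6 or more). The study normalized with DESeq2 (here 1.42.0), which was an alternative, as were no filter, at least 10 counts in every tumor, upper-quartile and total-count scaling, limma 3.58.1 on log2(FPKM + 1) and log2(FPKM + 0.1), a replicate block and leaving out each tumor. The fits were tested on simulated data. Named genes were the listed receptors, every called gene and up to 4 others of each list of ligands, other receptors, proteases and signaling genes, defining cell type markers, the 3 most similar genes of each receptor and chromosomal neighbors. The remaining ligands were named after their values were seen. Some listed genes and neighbors are not reported here. The members and lists were chosen with earlier results of these data known. The ratio of Ackr3 to Cxcr4 was added after the values were seen. Figures were made in Python 3.11.15 with matplotlib 3.10.9.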

Additional observations from a re-analysis of the deposited data

How the results depend on the processing

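The number of genes called higher or lower, 497 and 150, was 1154 and 352 with DESeq2, 283 and 97 with limma on log2(FPKM + 1), and 0 and 0 with the replicate block, where edgeR gave 1378 and 413 genes at that fold before adjustment, at an unadjusted threshold of 0.05. It ranged from 0 to 639 and from 0 to 197 without single tumors. Of the 6 receptors, DESeq2 called 3 and the replicate block 0, and fits without a tumor called from 0 to 1. DESeq2 put Ccr1 (log2 fold change 2.87) and Ccrl2 (2.47) past the threshold, and with the replicate block Ackr3 had a log2 fold change of 1.80 and an adjusted p of 0.0858 from edgeR. Its log2 fold change ranged from 1.50 to 2.09 without single tumors. Among ligands and other receptors, 8 were called with DESeq2, 4 with limma on log2(FPKM + 0.1), 0 with the replicate block, and from 0 to 6 without single tumors. The cause of these shifts was not tested. The block assumes that footpad and flank tumors of the same number belong together. The labels do not say so. Deviations from the site means correlated at 0.054, -0.097 and -0.11 for replicates 1, 2 and 3, and no tumor correlated best with the tumor of its own number. Whether tumors of the same number came from 1 mouse was not tested.

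Direction turned for Cx3cr1 with total-count scaling (log2 fold change -0.029) and without single tumors (from -0.44 to 1.11), and it had no value with limma or with 10 counts in every tumor, where it was filtered out. Ccrl2 relative to Ptprc turned when the marker level was taken as the mean of log2(CPM + 0.1), to 0.0044, and ranged from -0.40 to 0.30 without single tumors. Without single tumors, Cxcr4 ranged from -0.47 to 0.38 relative to endothelial and from -0.90 to 0.55 relative to macrophage markers, Ccl5 from -0.62 to 0.24, Ccl8 from -0.82 to 0.058 and Rarres2 from -1.12 to 0.79. Other results for the 6 receptors kept their direction under the alternatives run. Cx3cr1 had the lowest counts of the 6 receptors, 6 to 49 reads.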
